A study of Mus musculus with 7 samples.

Results

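The 7 genes described here encode members of a signalling loop: the Sprouty proteins *Spry1*, *Spry2* and *Spry4*, and the fibroblast growth factor (FGF) receptors *Fgfr1*, *Fgfr2*, *Fgfr3* and *Fgfr4*. They were taken by name from the GENCODE M21 annotation of mouse build mm10, as 7 of its 21884 protein-coding genes with a unique name. For each gene, all MACS peaks in the gene body and 20 kb on either side were collected from 4 ATAC-seq and 3 CUT&Tag libraries of mouse muscle stem cells (MuSCs). ATAC-seq marks DNA that the Tn5 transposase can reach, and CUT&Tag marks DNA that lies near an antibody target. MACS gives each peak a fold, the summit pileup set against a background pileup. The peaks of the 4 ATAC libraries merged into 91 regions at the 7 loci, of 122720 regions in the whole series.

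The study asked what TRF2, a telomere-binding protein encoded by *Terf2*, does outside telomeres in MuSCs. The ATAC libraries came from uninjured hind limb muscle, 2 labelled Control and 2 labelled TRF2KO. According to the methods, TRF2KO mice carried floxed *Terf2* alleles and a Pax7-driven, tamoxifen-inducible Cre (Pax7CreERT2), received 7 doses of tamoxifen from 8 to 10 weeks of age, and 100000 sorted cells went into each ATAC condition. The label of genotype reads wildtype for all 4, so the groups follow the sample titles, and which alleles and treatment the Control mice carried was not given beyond that word. The CUT&Tag libraries, 2 with an antibody against TRF2 and 1 with rabbit IgG, came from tibialis anterior muscle of wildtype mice after injection of notexin, a snake toxin that injures muscle. Their labels give 3 days after injury, whereas the methods give 48 h, tibialis anterior and gastrocnemius muscle, control Pax7 Cre mice with a tdTomato reporter and 45000 cells. No CUT&Tag library came from TRF2KO cells. Cells were sorted as negative for CD45, CD31, CD11b and Sca1 and positive for α7-integrin with VCAM or CD34. Nothing in the labels says that the 2 libraries of a group came from different animals, so differences between groups are set against a spread that may be technical.

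FGF ligands bind FGF receptors together with heparan sulfate, the receptors phosphorylate each other and the adaptor FRS2, and RAS then activates the kinase cascade that ends in ERK. Sprouty genes are switched on by this cascade, and their proteins dampen it again. In adult muscle, SPRY1 is known for holding FGF signalling down in resting MuSCs, and FGFR1 and FGFR4 are the receptors best known from these cells.

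The sequences below are shown because TRF2 has been linked to G-quadruplexes, 4-stranded structures that G-rich DNA can fold into, and because the first 3 carry TRF2 peaks inside *Fgfr1* and behind *Fgfr4*. The other regions with TRF2 in both libraries, at the *Fgfr1* start, inside *Letm2* and in *Spry4*, are not printed. Each of the first 3 sequences is the part covered by both TRF2 libraries, cut to at most 300 bases. The motif searched was 4 runs of at least 3 G (GGG) with loops of 1 to 12 bases, on both strands, so that CCC runs mark the motif on the other strand. Long capital runs mark this motif. Capital runs of 6 bases mark CAGCTG, an E-box letter pattern that reads the same on both strands. The sequences are from GRCm38.p6, whose chromosome coordinates mm10 shares, and run 5′ to 3′, with the TRF2 regions on the plus strand.

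The stretch inside *Fgfr1*, within the TRF2 region centred 36495 bp into the gene, lay at chr8:25555105-25555404, outside annotated exons. The pair downstream of *Fgfr4* lay at chr13:55169140-55169394 and chr13:55171793-55172055.
Fgfr1, internal: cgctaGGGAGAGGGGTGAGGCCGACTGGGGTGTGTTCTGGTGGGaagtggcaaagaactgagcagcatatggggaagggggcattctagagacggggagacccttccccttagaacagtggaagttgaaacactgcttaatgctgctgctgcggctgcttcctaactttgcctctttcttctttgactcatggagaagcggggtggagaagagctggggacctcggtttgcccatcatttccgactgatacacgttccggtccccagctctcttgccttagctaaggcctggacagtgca
Fgfr4, first downstream: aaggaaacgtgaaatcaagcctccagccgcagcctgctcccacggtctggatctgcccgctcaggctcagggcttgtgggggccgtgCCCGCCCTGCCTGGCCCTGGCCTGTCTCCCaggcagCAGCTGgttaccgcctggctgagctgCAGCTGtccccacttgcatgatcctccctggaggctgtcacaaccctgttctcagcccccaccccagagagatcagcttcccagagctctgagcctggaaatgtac
Fgfr4, second downstream: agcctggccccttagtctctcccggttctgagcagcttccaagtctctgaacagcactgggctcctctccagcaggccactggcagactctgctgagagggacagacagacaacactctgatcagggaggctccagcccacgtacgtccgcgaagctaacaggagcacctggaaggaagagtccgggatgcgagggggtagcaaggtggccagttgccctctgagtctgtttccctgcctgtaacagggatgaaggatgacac
The *Fgfr1* stretch held 1 motif and the first *Fgfr4* stretch held 1 motif and 2 CAGCTG, while the second *Fgfr4* stretch held neither. These counts are for the printed stretches alone. The whole regions held 2 CAGCTG at *Fgfr1*, 3 in the first *Fgfr4* region and 2 in the second. That second region also held the motif, which the printed stretch does not contain. By whole region, CAGCTG was found in 31.2% of the 7414 regions of the series that both TRF2 libraries share. The G and C content was 55.7% in the *Fgfr1* stretch, and 63.9% and 59.3% in those of *Fgfr4*.

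The promoters are shown for members whose start regions ranged widely in level. RefSeq promoter entries matched 5 of the 7 members, and *Spry4* and *Fgfr1* were not among them. The entry of *Fgfr4* and another of *Fgfr3* are not printed, as they overlap the annotated transcripts of those genes. Each sequence below lies upstream of the RefSeq start, on the strand of the gene, at chr3:37639697-37639946 (plus) for *Spry1*, chr14:105896820-105897069 (minus) for *Spry2*, chr7:130266809-130267058 (minus) for *Fgfr2* and chr5:33721474-33721673 (plus) for *Fgfr3*.
Spry1: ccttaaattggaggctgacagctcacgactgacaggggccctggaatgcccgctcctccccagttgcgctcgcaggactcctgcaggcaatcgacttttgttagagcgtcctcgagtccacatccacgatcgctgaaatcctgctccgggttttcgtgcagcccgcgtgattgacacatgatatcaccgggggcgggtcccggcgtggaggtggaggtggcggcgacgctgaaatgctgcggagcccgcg
Spry2: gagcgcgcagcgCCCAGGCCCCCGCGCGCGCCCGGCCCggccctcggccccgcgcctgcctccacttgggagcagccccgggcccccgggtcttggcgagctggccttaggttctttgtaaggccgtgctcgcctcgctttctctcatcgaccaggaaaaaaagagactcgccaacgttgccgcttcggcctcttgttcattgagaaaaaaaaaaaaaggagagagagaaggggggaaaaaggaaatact
Fgfr2: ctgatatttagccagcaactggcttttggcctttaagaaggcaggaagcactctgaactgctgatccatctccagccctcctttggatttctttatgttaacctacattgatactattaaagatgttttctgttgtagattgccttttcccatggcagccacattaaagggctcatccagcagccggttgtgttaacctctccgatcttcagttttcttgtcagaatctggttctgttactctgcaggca
Fgfr3: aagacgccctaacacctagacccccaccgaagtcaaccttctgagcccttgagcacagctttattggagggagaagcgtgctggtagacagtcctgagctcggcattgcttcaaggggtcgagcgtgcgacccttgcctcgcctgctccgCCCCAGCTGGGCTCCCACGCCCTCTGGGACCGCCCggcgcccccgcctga
*Spry1* and *Spry2* each held 23 CG dinucleotides in 250 bases and 62.4% G and C. *Fgfr2* held 2 CG and 44.0% G and C, below the median promoter of the 16505 in the table, with 10 CG and 56.0%. Unlike the other 3 stretches, that of *Fgfr2* lies outside the ATAC region of its gene start (chr7:130264881-130266786), upstream of the GENCODE start at 130266263, so its composition is not that of the region measured. The motif with loops of up to 12 bases was found at *Spry2* and *Fgfr3*, and in 30.6% of all promoters. At *Fgfr3* the CAGCTG lay inside that motif, and 11.8% of all promoters held a CAGCTG. With loops of up to 7 bases, *Spry2* still held 1 motif and the *Fgfr3* stretch shown held none, against 19.6% of all promoters. The other *Fgfr3* entry, with 72.8% G and C and 24 CG, held 1 such motif, and the *Fgfr4* entry held none of either kind.

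Before the comparison, the label of the knockout was checked at *Terf2* itself. The ATAC region at the *Terf2* start ranked at the 85.7th and 86.1st percentile in Control and at the 66.1st and 64.3rd in TRF2KO, so both TRF2KO libraries lay 19.6 points or more below Control. Which part of *Terf2* is removed was not given in the sources used here. All 8 MuSC markers had a start region in all 4 libraries, with *Pax7* between 83.7 and 86.1 and overlapping between genotypes. *Itga7* (gap 3.2 points) and *Cdh15* (0.3) were lower in TRF2KO, *Cd34* (4.6) and *Myf5* (0.8) higher, and the other 4 overlapped. Such a region was found for 1 of 4 leukocyte markers, 3 of 4 endothelial, 2 of 4 fibro-adipogenic and 1 of 4 fibre markers. In these, *Cd68* ranked at 25.6 and 26.6 in Control and 8.0 and 10.0 in TRF2KO, and *Kdr* at 17.7 and 15.9 against 25.6 and 31.9. The endothelial *Tek* ranked at 68.9 and 61.9 against 70.3 and 72.9, and *Pecam1* at 9.5 and 4.1 against 25.6 and 6.4. The fibre marker *Myh1* ranked between 73.6 and 76.4 in all 4 libraries. *Pdgfra*, whose cells the Sca1 gate should mostly remove, ranked between 83.3 and 84.2 in all 4, while *Col3a1* ranked at 65.3 and 71.1 in Control and at 50.02 and 52.1 in TRF2KO. The part of such cells in the results below was not tested. In these bulk libraries, a region open in fewer cells and a region less open in each cell cannot be told apart. Control 2 was the deepest ATAC library, with a background pileup at these loci of 4.56 fragments against 3.35 to 3.41 in the other 3, and with 100521 peaks against 84102 to 89160.

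The accessible landscape of the 7 loci was dominated by a few regions that were open in every library. Of the 91 merged regions, 46 held a peak in all 4 ATAC libraries (50.5%, against 50.2% of all merged regions), 3 only in both Control libraries (against 4.48%) and 0 only in both TRF2KO libraries (against 1.12%). A further 31 were found in a single library (against 30.4% of all merged regions). Of these, 21 were in Control 2 (against 44.8% of all single-library regions). Without Control 1, Control 2 or TRF2KO 1 the count in Control only was 25, 9 or 8, and without TRF2KO 2 the count in TRF2KO only was 6, since a single library then stood for its genotype. *Fgfr4* was the most open locus per length, with 13 of its 15 regions in all 4 libraries and between 27.0% and 39.0% of its 56.1 kb inside peaks. *Fgfr2* was the least open, with 6 regions in 143.8 kb and between 2.06% and 2.66% covered.

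**Figure D1:**
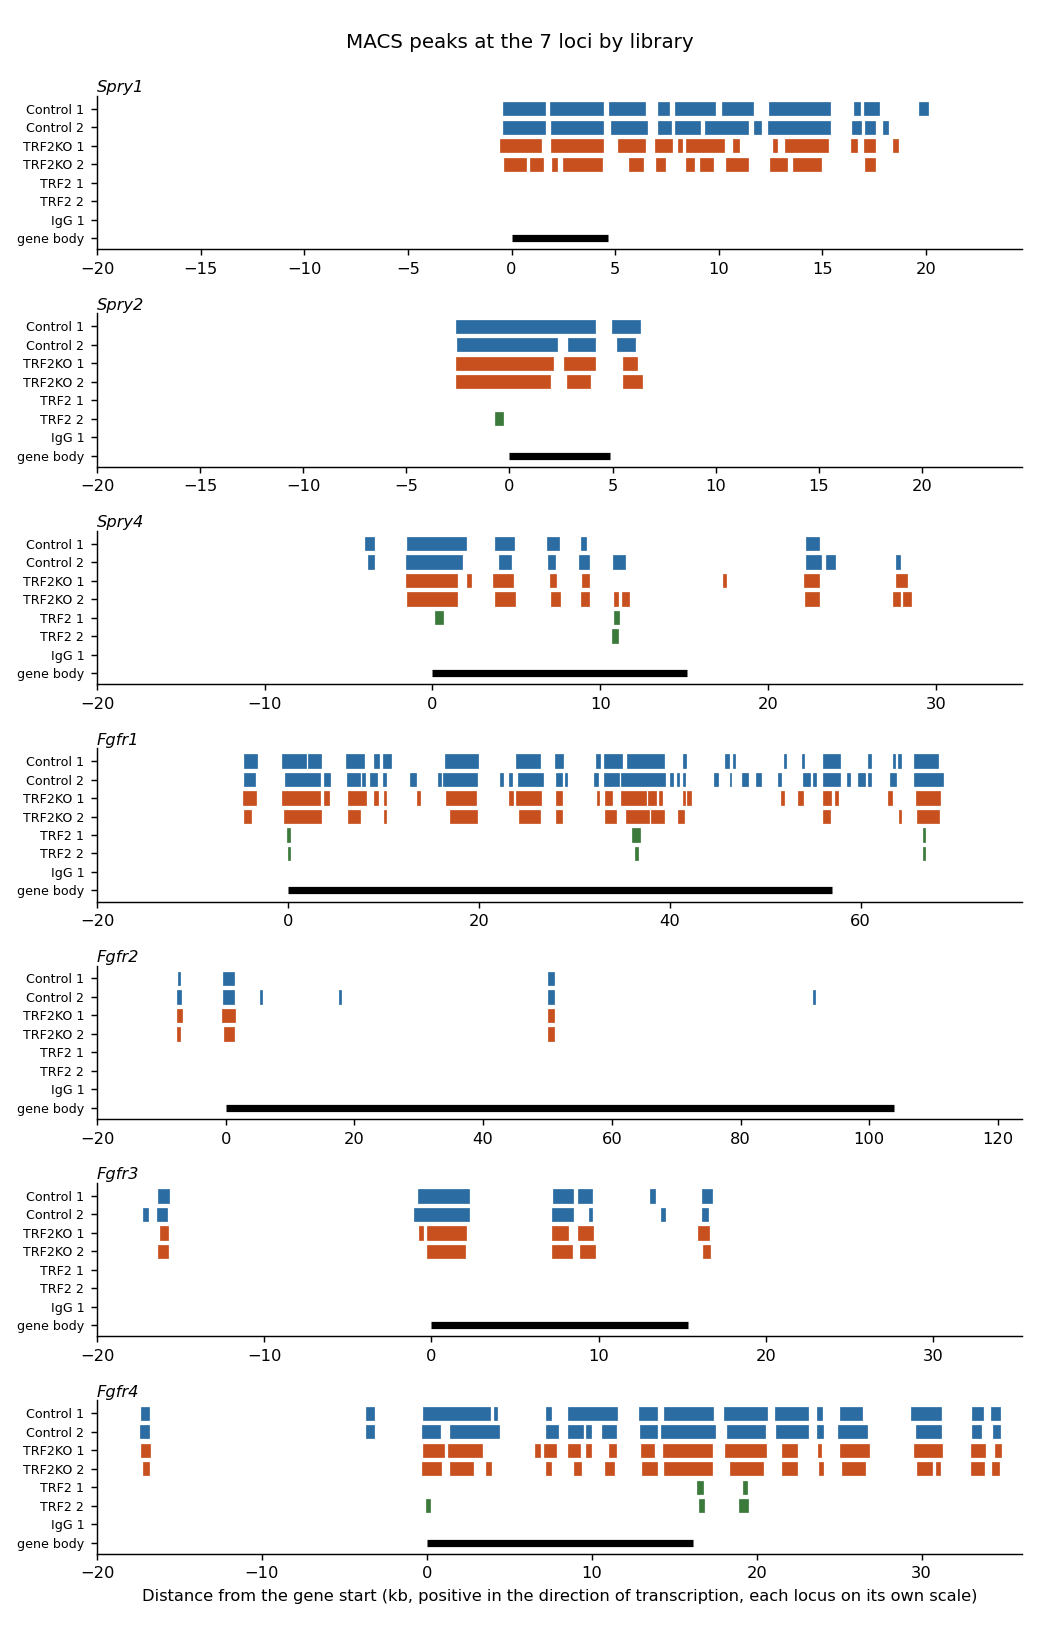
MACS peaks (blocks) in each of the 7 libraries at the 7 loci, by distance from the gene start in kb, with the gene body in black and each locus on its own scale. *Fgfr1* and *Fgfr4* carry peaks through and beyond the gene in all 4 ATAC libraries, *Fgfr2* has 3 shared regions in 143.8 kb, and IgG has no peak.

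All 7 genes had a region open in all 4 libraries within 1 kb of the gene start. Levels are given as the percentile rank of the fold among the 61610 regions with a peak in all 4 libraries, 100 being the highest, which holds the number of regions equal between libraries of unequal depth. The fold is read at one summit and is not summed over length. At high ranks a given change in fold moves the rank by fewer points than at low ranks. In order of their mean rank, *Spry2* came first with 95.8, then *Fgfr1* with 94.2, *Spry1* with 90.7, *Spry4* with 88.9, *Fgfr4* with 86.7, *Fgfr3* with 84.3 and *Fgfr2* with 60.8. The 4 values of *Spry1* and *Spry4* overlapped, as did those of *Fgfr4* and *Fgfr3*, and the other neighbours in this order did not. The median over the 13490 coding genes with such a region was 84.0.

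Among the Sproutys, the *Spry1* start (chr3:37639391-37641561) ranked at 91.3 and 92.6 in Control and at 90.2 and 88.6 in TRF2KO. Its folds were 74.8 and 70.5 in Control and 69.99 and 59.2 in TRF2KO. Both TRF2KO libraries were below both Control libraries, by a difference of means of -2.59 points and a gap of 1.2 points between the nearest libraries. The *Spry2* start (chr14:105892666-105899434) ranked at 95.5 and 95.3 in Control and at 95.7 and 96.6 in TRF2KO. The TRF2KO values were higher by 0.70 points on average, with a gap of 0.1. Within the libraries' own lists the genotypes overlapped, at 96.9 and 97.1 against 96.8 and 97.5, and the difference was 0.15 points, while without TRF2KO 2 it was 0.22. The *Spry4* start, 0.2 kb from the gene start to the middle of the region, ranked at 88.4 and 89.3 in Control and at 89.3 and 88.8 in TRF2KO, and the genotypes overlapped.

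Among the receptors, the *Fgfr1* start (chr8:25518102-25522257) ranked at 94.6 and 95.003 in Control and at 93.3 and 93.9 in TRF2KO. It was lower in TRF2KO by -1.22 points, with a gap of 0.7. The *Fgfr4* start (chr13:55152359-55157017) was lower as well, at 87.1 and 86.8 against 86.2 and 86.6, but its gap was 0.2 points. The *Fgfr2* start (chr7:130264881-130266786) ranked at 60.01 and 60.6 in Control and at 58.8 and 63.6 in TRF2KO, values that overlapped. The *Fgfr3* start (chr5:33720661-33723979) ranked at 81.0 and 82.9 in Control and at 85.6 and 87.7 in TRF2KO. The difference of means was 4.70 points, the largest of the 7 by this rank, and the gap 2.8. Ranked within each library's own list, it stood at 86.8 and 89.4 against 89.5 and 90.9, and the difference was 2.05 points, smaller in size than those of *Fgfr2* (-2.67) and *Spry1* (-2.54). The *Fgfr3* region also overlaps *G630022F23Rik*, the *Spry1* start region *Gm42922* and the *Spry4* start region *AC133601.1*. Peaks carry no strand, so signal cannot be split between these genes.

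**Figure D2:**
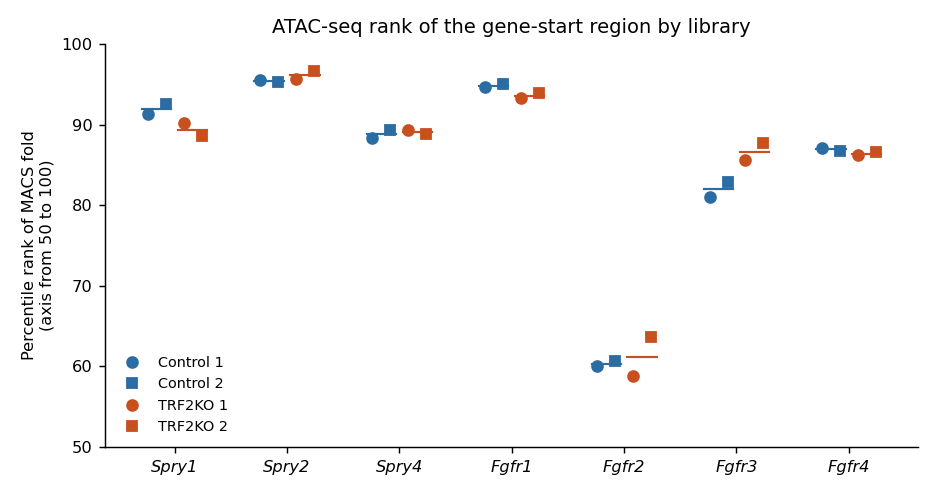
Percentile rank of the MACS fold at the gene-start region (axis from 50 to 100) in each ATAC library, with circles for replicate 1, squares for replicate 2 and lines for the group means. *Fgfr3* is higher in both TRF2KO libraries (85.6 and 87.7) than in both Control libraries (81.0 and 82.9), *Spry1* and *Fgfr1* are lower, and *Fgfr2* stands below the other 6.

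In all, 3 members were lower at the gene start in TRF2KO, 2 were higher and 2 overlapped. Over all 13490 gene starts, 12.1% were lower and 40.3% higher by the same rule, with a median difference of 0.75 points, against 0.17 for the 7 members. Ranked within each library's own full list, 3 members were lower and 1 higher, *Fgfr3*, as *Spry2* then overlapped, and the background turned to 28.6% lower and 9.15% higher. With 2 libraries against 2, an exact two-sided permutation test cannot give a p under 0.333, which each of the 5 separated members reached, so none of these differences could pass a threshold of 0.05.

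Across the loci, lower and higher regions were found at different genes. Of the 46 regions open in all 4 libraries, 15 ranked lower in both TRF2KO libraries, 8 ranked higher and 23 overlapped. Without the 7 gene-start regions, 12 were lower and 6 higher of 39. The background was 26.0% lower and 28.9% higher over all such regions. Ranked within each library's own list, the members' counts became 23 lower and 4 higher, and the background 44.1% and 8.94%. Without 1 library there are fewer values to separate, and the counts were 23 lower and 13 higher without Control 1, 21 and 12 without Control 2, 24 and 13 without TRF2KO 1, and 21 and 15 without TRF2KO 2. The 15 lower regions were in *Fgfr4* (6), *Fgfr1* (5) and *Spry1* (4), and the 8 higher ones in *Fgfr3* (3), *Spry2* (2), *Spry4* (2) and *Fgfr4* (1). No locus but *Fgfr4* held calls in both directions. Over 3 kb from any transcript start, 8 of 24 member regions were lower and 3 higher, against 30.2% and 25.6% of all such regions.

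**Figure D3:**
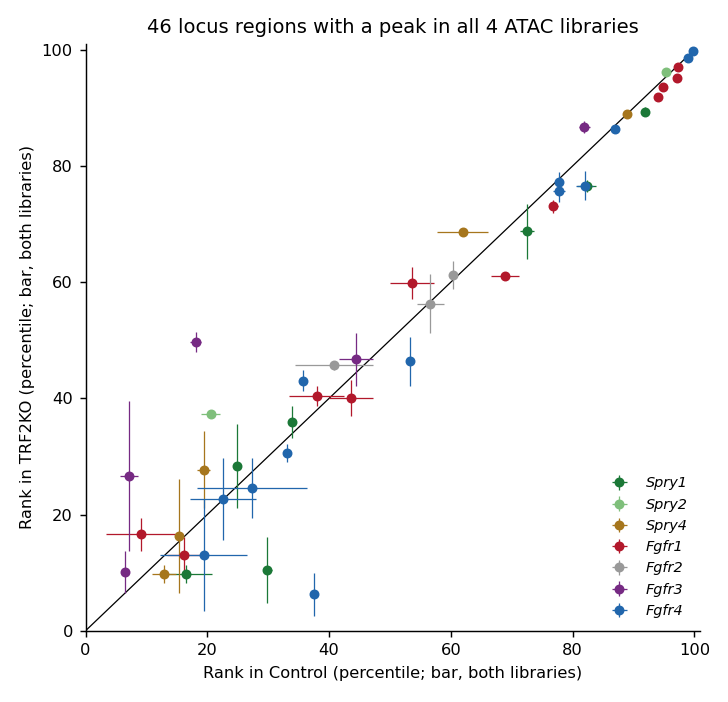
Mean rank in TRF2KO against mean rank in Control, in percentiles, for the 46 regions with a peak in all 4 ATAC libraries, coloured by gene, with bars joining both libraries of a genotype and a line at equal rank. The *Fgfr3* region at 19.05 and 17.1 in Control stands above the line, and the *Fgfr4* region at 37.3 and 37.8 in Control stands below it. Regions above rank 80 lie closer to the line, where a given change in fold moves the rank by fewer points.

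The widest gap in the higher direction was inside *Fgfr3*, at chr5:33728915-33730214, 7.8 kb into the gene, over annotated exons and an internal annotated transcript start of *Fgfr3*. Its folds were 6.9 and 5.9 in Control and 12.1 and 12.3 in TRF2KO. Its ranks were 19.05 and 17.1 against 48.01 and 51.4, which left 29.0 points between the nearest libraries. It was called by GoPeaks and by SEACR in all 4 libraries, and was higher in TRF2KO by its rank in each library's own list too. The adjoining region, chr5:33730462-33731500, ranked at 5.7 and 8.5 in Control and at 39.6 and 13.8 in TRF2KO. Its gap of 5.2 points came with a wide spread between the TRF2KO libraries, and in the libraries' own lists the genotypes overlapped. The latter begins 241 bp from an annotated transcript start of *Fgfr3*, so no higher region of this gene lay over 3 kb from a start.

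The widest gap in the lower direction was downstream of *Fgfr4*, at chr13:55176291-55176647, 23.8 kb from the gene start. Folds of 10.6 and 9.5 in Control stood against 3.7 and 4.5 in TRF2KO, and ranks of 37.3 and 37.8 against 2.6 and 10.0. The gap was 27.3 points. GoPeaks called it in 3 of the 4 libraries and SEACR in all 4. Its neighbour at chr13:55173782-55175753 was lower too, at 83.3 and 80.6 in Control and 79.2 and 74.1 in TRF2KO. The highest ranks of all 91 regions were found just before these, across the 3′ end of *Fgfr4* (chr13:55166821-55170109) and beyond it (chr13:55170686-55173259). The first had folds of 152.6 and 131.2 in Control and 154.8 and 143.0 in TRF2KO, and the second had 189.9, 168.1, 198.8 and 195.0 in the same order of libraries. These ranked at 98.6 to 99.0 and at 99.7 to 99.8, above the start of *Fgfr4* itself, and differed by -0.30 and -0.03 points between the genotypes. Within the gene, 1 region (chr13:55159731-55160594) ranked higher in TRF2KO, at 35.4 and 36.1 against 44.9 and 41.2.

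At *Spry1*, the gene for the Sprouty known from resting MuSCs, 1 lower region lay over the gene start and 3 lay behind the gene. The region at chr3:37644634-37646472, next to its 3′ end, ranked at 29.1 and 30.7 in Control and at 16.2 and 4.9 in TRF2KO, with folds of 8.7 and 8.1 against 5.7 and 3.9. Another at chr3:37652315-37655315, 13.9 kb from the start, had folds of 42.8 and 43.2 in Control and 31.8 and 32.5 in TRF2KO, and ranked at 80.8 and 83.8 against 75.5 and 77.6. In both, the genotypes were separated, by 12.9 and 3.2 points. The first also overlaps *Gm43820* and lies 27 bp from its start. This is a transcript with no assigned coding function, and the signal cannot be credited to *Spry1* alone. At *Spry2*, the single region beyond the start (chr14:105890385-105891856) went the other way, from 19.05 and 22.0 in Control to 37.8 and 36.9 in TRF2KO. GoPeaks called it in all 4 libraries and SEACR in 0.

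*Fgfr1* held the largest number of regions, 37, but only 11 of them in all 4 libraries, and 17 in 1 library alone. Of the 11, 5 were lower in TRF2KO and 0 higher. The region with the widest gap, chr8:25542696-25545457 in an intron 25.3 kb from the start, had folds of 28.5 and 21.1 in Control and 18.3 and 16.3 in TRF2KO. Its ranks were 71.2 and 66.5 against 61.6 and 60.6. The 2 most open regions of the gene, 18.1 and 36.3 kb from the start, ranked at 97.3 and 97.4 in Control against 96.8 and 97.4 in TRF2KO, and at 97.1 and 97.1 against 94.8 and 95.5. The second of these, chr8:25551844-25558296, was separated by 1.6 points and holds an annotated internal transcript start of *Fgfr1*. This region also overlaps *Gm16159* and holds a start of it, so its signal cannot be credited to *Fgfr1* alone. The annotated record of *Fgfr1* begins further upstream, at position 25513654. The region near that end, chr8:25514047-25515540, ranked at 42.5 and 33.5 in Control and at 38.7 and 42.2 in TRF2KO, so the genotypes overlapped there.

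*Fgfr2* was the only locus where no shared region was separated between the genotypes, and *Spry4* had higher regions but no lower one. At *Spry4*, 2 of 5 shared regions ranked higher in TRF2KO, one 22.6 kb from the start, at 66.1 and 57.8 in Control against 68.2 and 69.0, and one in an intron 7.2 kb from the start, at 20.4 and 18.4 against 34.4 and 21.1. The intron region also overlaps *Gm27369* and *Gm27804* and holds a start of *Gm27369*. At *Fgfr2*, the genotypes overlapped in all 3 shared regions, whose ranks ran from 34.5 to 63.6. The 3 regions seen only in both Control libraries lay 3.7 kb before *Spry4*, 3.4 kb before *Fgfr4* and 60.9 kb behind the start of *Fgfr1*, inside *Letm2*. Their folds were 3.9 and 3.1, 5.5 and 5.2, and 5.1 and 3.4, all among the low ones.

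The amount of sequence inside peaks was smaller in TRF2KO at 5 of the 7 loci. *Fgfr1* had 28.1 and 34.1 kb covered in Control and 25.9 and 20.7 kb in TRF2KO, a change of -25.1%. *Spry1* had 14.7 and 14.6 kb against 12.3 and 9.6 kb, and *Fgfr4* had 21.9 and 20.9 kb against 18.4 and 15.1 kb, changes of -25.3% and -21.7%. *Fgfr3* went from 6.9 and 6.3 kb to 5.6 and 5.4 kb, although its ranks were higher, and *Spry2* from 8.1 and 7.0 kb to 6.9 and 6.6 kb. *Spry4* (7.0 and 7.9 against 7.1 and 7.5 kb) and *Fgfr2* (3.0 and 3.8 against 3.4 and 3.0 kb) overlapped.

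**Figure D4:**
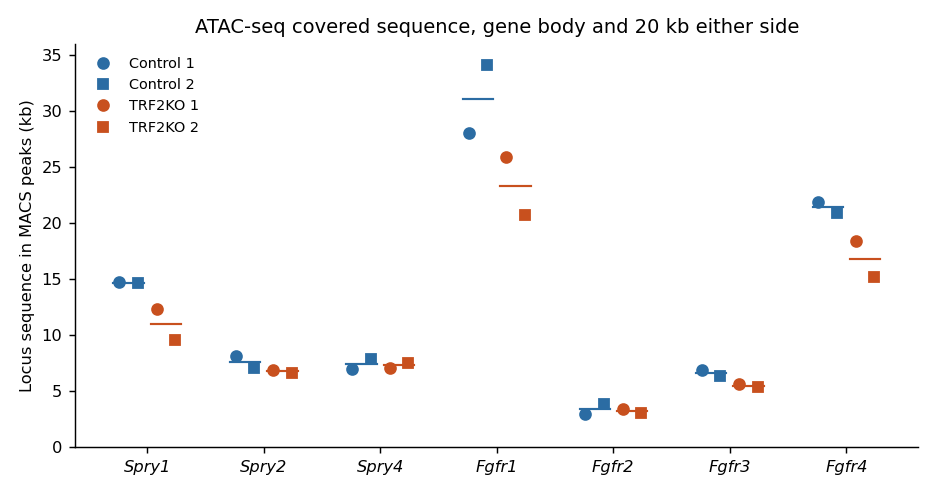
Sequence inside MACS peaks (kb) at each locus in each ATAC library, with circles for replicate 1, squares for replicate 2 and lines for the group means. Both TRF2KO libraries lie below both Control libraries at *Spry1*, *Spry2*, *Fgfr1*, *Fgfr3* and *Fgfr4*, and the genotypes overlap at *Spry4* and *Fgfr2*.

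A smaller covered length was common in the series. Over 18261 coding loci with any peak, 42.9% had less covered sequence in both TRF2KO libraries and 5.61% had more. Over the 18016 of them with covered sequence in Control, the median change was -10.6%. The peaks of a whole library covered 70.3 and 76.9 Mb in Control and 65.3 and 62.0 Mb in TRF2KO. Taken as a share of the library's own covered sequence, *Spry1* and *Fgfr1* remained lower in both TRF2KO libraries, *Spry4* became higher and the other 4 overlapped. For *Spry1* this share was 209 and 190 bp per covered Mb in Control and 189 and 155 in TRF2KO. For *Fgfr1* it was 399 and 444 against 396 and 334. By that measure 15.0% of all loci were lower and 27.9% higher.

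The TRF2 peaks shared by both CUT&Tag libraries lay at the receptors *Fgfr1* and *Fgfr4* and at *Spry4*. Merged regions in which both TRF2 libraries had a peak numbered 6, with 3 at *Fgfr1*, 2 at *Fgfr4* and 1 at *Spry4*, and IgG had 0 peaks at any of the 7 loci, of 656 in its list. Over all coding genes, 41.4% of loci and 22.3% of gene starts held such a region, and among the 15631 loci as long as these the share was 43.7%. Here it was 3 of 7 loci and 1 of 7 gene starts. The summit pileups of all 15 TRF2 peaks ran from 5 to 15 fragments, so a missing peak may be one that the depth could not show.

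The gene start with TRF2 in both libraries was that of *Fgfr1*, at chr8:25518698-25518939, with folds of 6.04 and 4.37 and pileups of 12 and 7 fragments. The region centred 36495 bp into *Fgfr1*, at chr8:25554831-25555678, had folds of 5.51 and 5.16 and lay in one of the most open regions of that gene. It overlaps *Gm16159* as well. The last of the *Fgfr1* locus, at chr8:25585249-25585486, with folds of 5.79 and 6.24, lay in *Letm2*, 3.1 kb from the nearest transcript start of that gene. All 3 fell in ATAC regions that ranked lower in both TRF2KO libraries, by -1.22, -1.98 and -2.26 points. That call was made for 26.0% of all shared regions and 12.1% of gene-start regions. Ranked within each library's own list, 44.1% of all shared regions were lower. The TRF2 peaks are from injured muscle and the ATAC regions from uninjured muscle.

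The pair at *Fgfr4*, at chr13:55168997-55169459 and chr13:55171564-55172125, lay in the strongest ATAC regions of the 7 loci, behind the gene. Folds were 4.62 and 4.32 in the first and 5.09 and 5.401 in the second, with pileups of 11 to 15 fragments. There the ATAC ranks differed by -0.30 points, again lower in both TRF2KO libraries but with a gap of 0.2, and by -0.03 points, with overlapping genotypes. The region in *Spry4*, 10.9 kb from its start, had folds of 3.94 and 5.54 and the lowest pileups, 5 and 8 fragments. Of the 6, it was the one outside an ATAC region shared by all 4 libraries: an ATAC peak was called there in Control 2 and TRF2KO 2, with folds of 3.4 and 3.2.

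A further 3 peaks, each at a gene start, were found in 1 TRF2 library. They were at *Spry2* (replicate 2, fold 6.31), *Spry4* (replicate 1, fold 4.40) and *Fgfr4* (replicate 2, fold 5.39). *Spry1*, *Fgfr2* and *Fgfr3* had 0 TRF2 peaks in either library. In the whole series the share of gene starts with a TRF2 region was larger at higher ATAC ranks, from 19.6% between ranks 60 and 85 to 53.0% between 90 and 95 and 79.0% above 95. *Spry2*, the member with the highest rank, fell in the last of these classes, and *Spry1* in the one before it.

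The motif of 4 GGG runs with loops of up to 7 bases was found in 1 of the 6 TRF2 regions, the internal one of *Fgfr1*, against 35.5% of the 7414 TRF2 regions of the series. With loops of up to 12 bases it was found in 5 of 6, all but the one in *Letm2*, against 52.8%. The *Fgfr1* motif with short loops lies outside the 300 bases printed above. The *Spry2* peak of replicate 2 held 2 motifs with short loops. None of the 9 held 3 telomere repeats (TTAGGG) in a row on either strand, a pattern found in 0.472% of all TRF2 regions.

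The rest of the pathway was read from a list of 62 genes, 61 of them in the annotation, and 57 had a start region in all 4 libraries. Of these, 8 were lower in TRF2KO (14.0%, against 12.1% of all gene starts) and 22 were higher (38.6%, against 40.3%). By role, 7 of 12 genes from RAS to ERK were higher and 1 lower, and 3 of 6 ligands were higher and 1 lower. Of 12 measured inhibitors, 5 were higher and 3 lower. Of 9 coreceptors and heparan sulfate proteoglycans, 4 were higher and 0 lower. Of 9 adaptors, 1 was higher and 1 lower, and of 9 target genes 2 were higher and 2 lower. A TRF2 region lay at 23 of the 61 annotated starts, with 7 among the 9 adaptors, against 22.3% of all starts. The median rank of the list was 86.6, and between ranks 85 and 90 the share over all genes was 40.7%. For the adaptors the median rank was 91.6, and between ranks 90 and 95 the share over all genes was 53.0%.

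In the lower direction the widest gaps on the list were at *Fgf21*, a hormone of the FGF family (19.05 and 23.2 in Control, 9.6 and 3.4 in TRF2KO). The next were *Lztr1*, which helps degrade RAS proteins (84.5 and 86.9 against 83.2 and 82.8), *Spred1*, a relative of the Sproutys (90.4 and 89.2 against 88.9 and 88.5), and *Rasa1*, which speeds the inactivation of RAS (98.5 and 98.4 against 98.0 and 98.1), with gaps of 1.3, 0.3 and 0.3 points. Other inhibitors were higher, such as *Cbl* (gap 1.2) and *Nf1* (0.6). Among the widest gaps in the higher direction were those at the transcription factor *Etv1* (70.7 and 69.1 against 75.4 and 75.2), the ligand *Fgf2* (39.2 and 45.3 against 49.4 and 50.1) and *Il17rd*, an inhibitor of FGF receptors also called Sef (79.4 and 79.9 against 83.3 and 83.1). By the lower of both TRF2 folds, the highest starts were those of the syndecan *Sdc2*, the kinase gene *Map2k1*, *Etv5*, *Shc1*, *Rasa1* and the RAS inactivator *Nf1*.

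For each member, the coding gene with the most similar 4 ranks at its start was also looked up, as the distance over the 4 libraries in rank points. It was *Sox8* for *Spry1* (1.09 points), *Siah2* for *Spry2* (0.297), *E430018J23Rik* for *Spry4* (0.401), *2610008E11Rik* for *Fgfr1* (0.464), *Gm14326* for *Fgfr2* (1.63), *Csf2ra* for *Fgfr3* (1.31) and *Myzap* for *Fgfr4* (0.417). *Fgfr2* and *Fgfr3* had the most distant nearest genes.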

How the data were processed

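Peak lists of 4 ATAC-seq and 3 CUT&Tag libraries were used as deposited. According to the methods, the authors aligned reads to mm10 with Bowtie2 in local mode, removed duplicates with Picard and called peaks with MACS, GoPeaks and SEACR in its stringent mode. Other caller settings were not given in the sources used here. The submitters' processing notes name MACS3 3.0.0 for CUT&Tag and 3.0.2 for ATAC-seq. The MACS fold deposited by the authors is the summit pileup over the background, each with 1 added, beside −log10 p and −log10 q. At these loci the ATAC background read from fold and p was 3.35 and 4.56 fragments in Control and 3.37 and 3.41 in TRF2KO. It was close to a single value per library, so the ATAC fold holds no correction for local signal. The SEACR lists carry signal from coverage, deposited by the authors, and only their positions were used, like those of GoPeaks. No read totals were used, so depth was read from the background pileup, solved from fold and p. The deposited consensus lists, 1 per genotype, were not used.

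ATAC peaks sharing at least 1 bp were merged over the 4 libraries. The maximum fold of a region was ranked among the 61610 regions with a peak in all 4. A difference was counted where both TRF2KO libraries lay on one side of both Control libraries, and an exact two-sided permutation test was run per value. The gene body was the span of APPRIS-tagged transcripts, because 1 transcript of support level 5 stretches the *Fgfr2* record to 2961 kb, across 30 other coding genes. The planned start was that of the gene record. This choice was made after that span was seen, and results with the full record are given as an alternative. TRF2 regions needed a peak in both TRF2 libraries. The genes named are the 7 members, *Terf2*, the markers, and the pathway genes and regions with the widest gaps or highest TRF2 folds, of which 1 is not reported here. Members and lists were chosen with earlier results of these data known. Steps were tested on simulated data. Python 3.11.15, NumPy 2.4.6, pandas 2.3.3 and Matplotlib 3.10.9 were used. Alternatives were other callers, ranks, flanks, windows and thresholds, and leaving out each library. The rank of −log10 p gave the same values as the rank of the fold. With a background fixed per library both have the same order, so that alternative could not differ.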

Additional observations from a re-analysis of the deposited data

How the results depend on the processing

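With 2 libraries a genotype, no p under 0.333 was possible, and CUT&Tag pileups of 5 to 15 fragments limit which TRF2 peaks could be seen. Counts of members lower or higher at the gene start, and of members with less covered sequence, mostly kept within 1.5 times of those reported. Ranked within each library's own list, 1 member was higher at the gene start, and 23 regions were lower and 4 higher. As a share of the library's covered sequence, chosen after seeing the data, 2 members had less. With GoPeaks 1 region was found in Control only. With SEACR, 7 regions were in all 4 libraries and 0 in Control only. With a −log10 q of at least 5, 1 region was in Control only, 1 in TRF2KO only and 1 had TRF2 in both libraries. With the gene body alone, 26 regions were in all 4 libraries, 0 in Control only, 9 were lower and 3 had TRF2, and with 50 kb flanks 72 were in all 4, 15 were higher and 12 had TRF2. The full gene record, chosen after seeing the annotation, gave 202 in all 4, 15 in Control only, 4 in TRF2KO only, 67 lower, 40 higher and 23 with TRF2, since it takes in the neighbours of *Fgfr2*. With it the *Fgfr1* difference turned to 2.45 points, at a region whose genotypes overlapped. The *Fgfr2* difference became -2.22 points, read at the far end of its stretched record. The 3 lower members then held *Fgfr2* in place of *Fgfr1*. With any annotated transcript start *Fgfr2* also stood at -2.22 points, and 4 members were lower. With loops of up to 12 bases the G-quadruplex motif was in 5 regions.

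Leaving out 1 ATAC library gave 3 to 25 regions in Control only (25 without Control 1, since 1 deep library then stood for the genotype), 0 to 6 in TRF2KO only, 21 to 24 lower and 12 to 15 higher. Members lower at the gene start then numbered 3 to 4 and members higher 2 to 3. Regions in all libraries numbered 46 to 51 and members with less covered sequence 5 to 7. Leaving out a TRF2 library left 7 to 8 TRF2 regions.

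The labels number the libraries 1 and 2 in both genotypes but tie no number to an animal or day. Deviations of same-numbered libraries from their group means had a correlation of 0.017 over 61610 regions, so no pairing was taken from the numbers. With the replicate number as a block, 3 members were lower and 2 higher at the gene start, 19 regions were lower and 9 higher, and 5 members had less covered sequence. The smallest p of the paired test is 0.5. It changed no call of a member. Other causes of the moves were not tested.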
